A study of Homo sapiens with 12 samples.

Results

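The genes described here are 47 genes of bone morphogenetic protein (BMP), TGF-beta and hedgehog signalling, among 19974 coding genes located on chromosomes 1 to 22 and X. They were chosen by name from these pathways. They comprise 15 BMP and GDF ligands, 6 TGF-beta, activin and nodal ligands, 6 secreted antagonists, 5 receptors, 2 inhibitory SMADs, 4 ID genes, 3 hedgehog ligands, 3 hedgehog receptors or antagonists and 3 GLI effectors. Their chromatin was profiled in MKL-1, a cell line from a Merkel cell carcinoma, a neuroendocrine tumour of the skin. The method was CUT&RUN, in which a nuclease tethered to an antibody releases the DNA around a chromatin mark. EPZ011989 blocks EZH2, the enzyme of Polycomb repressive complex 2 that writes the repressive mark H3K27me3. One set of cultures received 3 µM EPZ011989 in 1% ethanol and the other received 1% ethanol only, called vehicle. Cells were harvested on day 6 after a change of medium on day 3. Every culture was divided between antibodies to H3K27me3, to H3K4me3, which marks active or poised gene starts, and a control IgG. This gave 12 libraries in 6 groups of 2, EPZ011989 and vehicle for each antibody. Only this line was used, and replicates are repeat treatments of it, so their spread says nothing of how tumours vary.

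Each library was deposited as 1 list of peaks. A gene was scored in each of them by how many bases within 2500 bp of its ends fell under peaks, with a ceiling of 10002 bp. A gene counts as marked where a peak reaches this window by 1 bp or more. The EPZ011989 H3K27me3 libraries held 363 and 22 peaks, and the vehicle H3K27me3 libraries held 40782 and 44287. H3K4me3 libraries held 23106 and 21086 peaks with EPZ011989 and 22726 and 23804 in vehicle. Total reads per library were not analysed here. A stand-in for depth, the background in fragments per base solved from each list, was 0.373 and 0.148 for H3K27me3 with EPZ011989 and 1.12 and 1.63 in vehicle. For H3K4me3 it was 1.48 and 1.24 with EPZ011989 and 0.572 and 0.857 in vehicle. No window of the 47 genes held an IgG peak, while 10 windows did among all genes. The label of the line was set against marker genes. All 10 Merkel cell carcinoma genes examined, ATOH1, SOX2 and INSM1 among them, had H3K4me3 in every library of both treatments, and 0 had H3K27me3 in both vehicle libraries. Markers of other cell types had H3K4me3 in both vehicle libraries at 2 of 5 lymphoid and myeloid genes, 3 of 6 fibroblast genes, 1 of 5 keratinocyte genes and 1 of 4 endothelial genes.

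BMPs, GDFs, TGF-betas, activins and nodal are secreted ligands of one family. They bring together type I and type II receptor kinases, which phosphorylate SMAD proteins that enter the nucleus and switch target genes such as the ID genes on or off. Secreted antagonists such as noggin, chordin and follistatin bind the ligands before they reach a receptor, and SMAD6 and SMAD7 damp the signal inside the cell. Hedgehog ligands act by binding PTCH1, which otherwise holds back SMO, and free SMO lets GLI transcription factors act on their targets. Many of these genes are held by Polycomb in cells that do not use them. In mice, Merkel cells of the touch domes form under hedgehog signals from the hair follicle.

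In vehicle, these genes were often covered by H3K27me3. Both H3K27me3 libraries marked 30 of the 47, against 36.9% of all protein-coding genes. H3K4me3 was in both vehicle libraries at 32 of the 47, against 65% of all genes. H3K4me3 and H3K27me3 stood together at 23 of the 47 in vehicle, against 24.2% of all genes, a state often called bivalent. H3K27me3 stood alone at 5 of the 47 (INHBA, CHRD, GREM1, SHH and IHH) against 11.6% of all genes, and H3K4me3 alone at 6 (ID1 to ID4, BMPR1A and BMPR2) against 32.2%. Neither mark was present at 7 (BMP5, BMP10, GDF3, GDF10, NODAL, LEFTY2 and GLI3), against 19.2% of all genes. GLI3 is a long gene without an annotated start here, so its H3K4me3 was read only near its outer ends. H3K27me3 covered 0% of GLI3 with its flanks in both vehicle libraries. BMP4, BMP8A, BMP8B, GDF7, GDF11 and LEFTY1 had one of the marks in a single vehicle library. A library of many cells cannot show whether 2 marks lie on the same copy of a gene, nor tell a mark in fewer cells from less of it in each cell.

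The roles differed in what they carried. H3K27me3 marked 4 of 6 antagonists, 5 of 6 TGF-beta, activin and nodal ligands, 8 of 15 BMP and GDF ligands, both inhibitory SMADs, all 3 hedgehog ligands and all 3 hedgehog receptors or antagonists in vehicle. It also marked 3 of 5 receptors and 2 of 3 GLI genes, and none of the 4 ID genes. In both vehicle libraries H3K27me3 filled the entire window of 6 genes, TGFB1, CHRD, FST, SHH, SMO and NOG, while this held for 3.05% of all genes. TGFB1 encodes a founding ligand of its family, CHRD (chordin) and NOG (noggin) encode BMP antagonists, FST encodes follistatin, which binds activins, and SMO encodes the signal transducer of the hedgehog pathway. The merged vehicle H3K27me3 region at the 30 marked genes had a median length of 11.6 kb and ran from 2.56 kb at BMP2 to 44.6 kb at CHRD, and the median over all 7372 marked genes was 7.20 kb. After CHRD, whose region also takes in THPO, the longest lay over NOG (37.1 kb), SHH (30.2 kb), SMO and its neighbour AHCYL2 (24.3 kb), BMP6 (22.5 kb), GDF7 (21.2 kb), GREM1 (20.3 kb) and BMP3 (20.1 kb). These lengths are of unions of both vehicle lists, and joining regions across gaps of up to 3 kb raised the median for the 30 genes to 16.2 kb.

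The share of each gene under H3K27me3 varied. With its flanks included, the gene was covered over 100% in both vehicle libraries at NOG, CHRD, FST and SHH, all of them short. BMP4 was covered over 94.3% and 96.5%, TGFB1 over 90.2% and 90.4% and SMO over 76.1% and 77.5%. Of BMPR1B it covered 2.74% and 2.60%, and of BMP6 11.5% and 11.3%. Of the genes with neither mark, LEFTY2, GDF10, GDF3, NODAL and BMP10 lay 6.51, 12.6, 21.8, 26.9 and 31.3 kb in that order from the nearest vehicle H3K27me3 peak. GLI3, the main GLI repressor, and BMP5 lay 222 kb and 371 kb from one.

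Promoter sequences are shown for 4 genes whose starts lay wholly under vehicle H3K27me3 and whose H3K4me3 was wider with EPZ011989 in both libraries. They are RefSeq sequences of build GRCh38.p14, 250 bases before to 50 bases after the annotated start, written in the direction of the gene. Capitals mark each CG dinucleotide. The CHRD promoter (chr3:184379804-184380103, plus strand) has 36 CG, that of TGFB1 (chr19:41353873-41354172, minus strand) has 28, that of FST (chr5:53480379-53480678, plus strand) has 32 and that of SMO (chr7:129188383-129188682, plus strand) has 29.
CHRD: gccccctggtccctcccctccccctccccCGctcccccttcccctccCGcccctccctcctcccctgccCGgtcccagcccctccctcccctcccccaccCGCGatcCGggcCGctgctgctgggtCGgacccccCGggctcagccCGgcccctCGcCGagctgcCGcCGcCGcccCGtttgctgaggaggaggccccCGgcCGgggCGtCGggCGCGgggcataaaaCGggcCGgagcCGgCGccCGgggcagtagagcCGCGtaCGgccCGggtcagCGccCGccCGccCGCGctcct
TGFB1: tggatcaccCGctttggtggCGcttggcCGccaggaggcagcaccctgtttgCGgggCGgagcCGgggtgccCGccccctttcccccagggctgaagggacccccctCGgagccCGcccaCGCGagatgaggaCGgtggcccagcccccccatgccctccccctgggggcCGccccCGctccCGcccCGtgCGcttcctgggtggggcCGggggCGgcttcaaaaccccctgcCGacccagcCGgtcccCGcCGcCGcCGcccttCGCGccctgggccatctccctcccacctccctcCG
FST: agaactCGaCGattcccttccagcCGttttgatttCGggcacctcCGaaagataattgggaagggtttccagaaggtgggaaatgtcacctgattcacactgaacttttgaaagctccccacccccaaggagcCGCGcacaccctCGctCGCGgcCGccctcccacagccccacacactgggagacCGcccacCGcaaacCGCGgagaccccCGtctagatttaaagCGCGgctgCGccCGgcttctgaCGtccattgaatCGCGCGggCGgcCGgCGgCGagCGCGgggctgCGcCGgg
SMO: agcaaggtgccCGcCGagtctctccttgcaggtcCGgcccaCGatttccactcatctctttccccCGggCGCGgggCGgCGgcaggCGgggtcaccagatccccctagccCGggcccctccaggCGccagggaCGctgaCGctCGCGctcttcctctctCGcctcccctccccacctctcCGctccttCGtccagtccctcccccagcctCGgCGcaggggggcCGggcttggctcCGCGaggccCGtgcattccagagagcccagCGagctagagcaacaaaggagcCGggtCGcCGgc

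Another 3 promoters show the other vehicle states. ID2, which encodes a partner that keeps helix-loop-helix factors off DNA, carried H3K4me3 and no H3K27me3 in vehicle (chr2:8681806-8682105, plus strand, 33 CG). SHH, the best known hedgehog ligand, carried H3K27me3 and, in its window, no H3K4me3 (chr7:155812414-155812713, minus strand, 7 CG). BMP5, a ligand gene, carried neither (chr6:55875541-55875840, minus strand, 1 CG).
ID2: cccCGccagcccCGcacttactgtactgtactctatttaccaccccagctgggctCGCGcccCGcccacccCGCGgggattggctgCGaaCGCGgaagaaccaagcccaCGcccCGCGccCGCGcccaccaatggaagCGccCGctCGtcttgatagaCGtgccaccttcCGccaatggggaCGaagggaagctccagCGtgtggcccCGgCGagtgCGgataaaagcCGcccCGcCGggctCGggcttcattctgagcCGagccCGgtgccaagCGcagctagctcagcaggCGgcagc
SHH: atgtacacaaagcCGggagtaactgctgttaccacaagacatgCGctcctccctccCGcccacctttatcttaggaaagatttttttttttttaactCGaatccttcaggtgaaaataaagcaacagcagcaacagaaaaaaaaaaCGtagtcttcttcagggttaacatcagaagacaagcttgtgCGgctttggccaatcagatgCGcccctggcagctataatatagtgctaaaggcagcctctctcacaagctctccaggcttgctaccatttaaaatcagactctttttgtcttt
BMP5: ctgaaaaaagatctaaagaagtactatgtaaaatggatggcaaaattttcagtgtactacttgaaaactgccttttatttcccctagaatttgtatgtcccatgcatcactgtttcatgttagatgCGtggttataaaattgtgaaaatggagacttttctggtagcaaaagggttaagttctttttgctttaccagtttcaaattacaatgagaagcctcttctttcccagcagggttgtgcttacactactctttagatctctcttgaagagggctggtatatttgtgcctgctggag

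The first comparison asks what became of H3K27me3 at these genes under EZH2 inhibition. Of the 30 genes marked in both vehicle libraries, 29 held no H3K27me3 peak in their window in either EPZ011989 library, against 99.6% of all genes so marked. NOG was the exception, and 0.205% of all genes had a peak in an EPZ011989 library. H3K27me3 fell at 27 of the 34 genes tested by limma with Benjamini-Hochberg adjustment, against 60.2% of the 9601 genes tested, and rose at 0 of 34, against 0% of all genes. At an unadjusted p under 0.05, 30 of the 34 were lower and 0 higher, against 64.1% and 0% of all genes tested. The median difference, EPZ011989 minus vehicle, was -5001 bp for the 34 genes and -2234.5 bp over all genes tested. The share of marked genes that lost their peaks was thus close to that of all genes.

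The calls are given by role, against 60.2% of all genes tested. Apart from NOG, every gene tested held 0 bp in both EPZ011989 libraries. A missing call thus reflects low or uneven vehicle values, not a role that kept its H3K27me3. H3K27me3 was called lower at all 3 hedgehog ligands, all 3 hedgehog receptors or antagonists, both marked GLI genes, all 3 receptors tested and 4 of 5 antagonists tested. It was called lower at 4 of 5 TGF-beta, activin and nodal ligands tested, 7 of 11 BMP and GDF ligands and 1 of 2 inhibitory SMADs. SHH had 0 and 0 bp with EPZ011989, against 10002 and 10002 bp in vehicle. TGFB1, CHRD, FST and SMO had these same values, so at these 5 windows the difference of -10002 bp is the whole window and the limma adjusted p of 2.11e-21 reflects the floor and the ceiling of the measure, not a spread between replicates. BMP4, a ligand of mesoderm and skin development, had 0 and 0 bp with EPZ011989, against 9312 and 9578 bp in vehicle (adjusted p = 0.0005). INHBB, which encodes a subunit of activin B, had 0 and 0 bp, against 7289 and 7906 bp (adjusted p = 0.0032). At BMP4 and INHBB too the EPZ011989 values sat at the floor, so only the vehicle libraries showed a spread between replicates. Without EPZ011989 replicate 1, 21 of the 34 were called lower, and likewise 21 without replicate 2. BMP7, TGFB3, INHBB, TGFBR1, PTCH1 and GLI2 lost their calls in both cases, with adjusted p of 0.0572 at PTCH1 to 0.194 at BMP7.

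The genes without a call were mostly those with little or uneven H3K27me3 in vehicle. They were GDF5 (0 and 0 bp with EPZ011989, 1133 and 1925 bp in vehicle, adjusted p = 0.0522), INHBA (0 and 0 bp, 2818 and 5001 bp, adjusted p = 0.0605), SMAD7 (0 and 0 bp, 2633 and 5001 bp, adjusted p = 0.0744), BMP8A, BMP8B, GDF11 and LEFTY1. The last 4 had H3K27me3 in a single vehicle library, at 259, 809, 1117 and 696 bp in that order, and limma gave each an adjusted p of 0.361. LEFTY1 and LEFTY2, which encode near-identical nodal antagonists, differ in that LEFTY2 had 0 bp in all 4 H3K27me3 libraries. How reads that match both copies were handled is not given in the sources used here, so the pair, like BMP8A and BMP8B, is uncertain. The EPZ011989 H3K27me3 libraries had the lower background of that antibody, 0.373 and 0.148 fragments per base, against 1.12 and 1.63 in vehicle, and its part in the result was not tested. Quantile normalization, which gives every library the same distribution, turned 6 of the 34 genes to higher calls and left 20 lower, against 34.4% and 37.5% of all genes tested.

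NOG (chromosome 17, 56593699 to 56595611) kept H3K27me3 in one EPZ011989 library. Its window had 1489 bp and 0 bp with EPZ011989, against 6913 and 6913 bp in vehicle, where the short gene's window was filled. The difference was -6168.5 bp (SE 723, limma adjusted p = 0.0215). The remaining peak lay 1.38 to 2.86 kb above the lower-numbered gene end, and its fold over background by the authors' MACS2 run was 4.74. The adjusted p was 0.132 both without vehicle replicate 1 and without vehicle replicate 2, and the other EPZ011989 library, with 22 peaks in all, showed nothing in the window. Outside the windows, GLI2, which encodes the main GLI activator in mice, had a peak over 0.112% of the gene with its flanks in EPZ011989 replicate 2 and none in replicate 1, against 10.6% and 15.2% in vehicle.

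**Figure D1:**
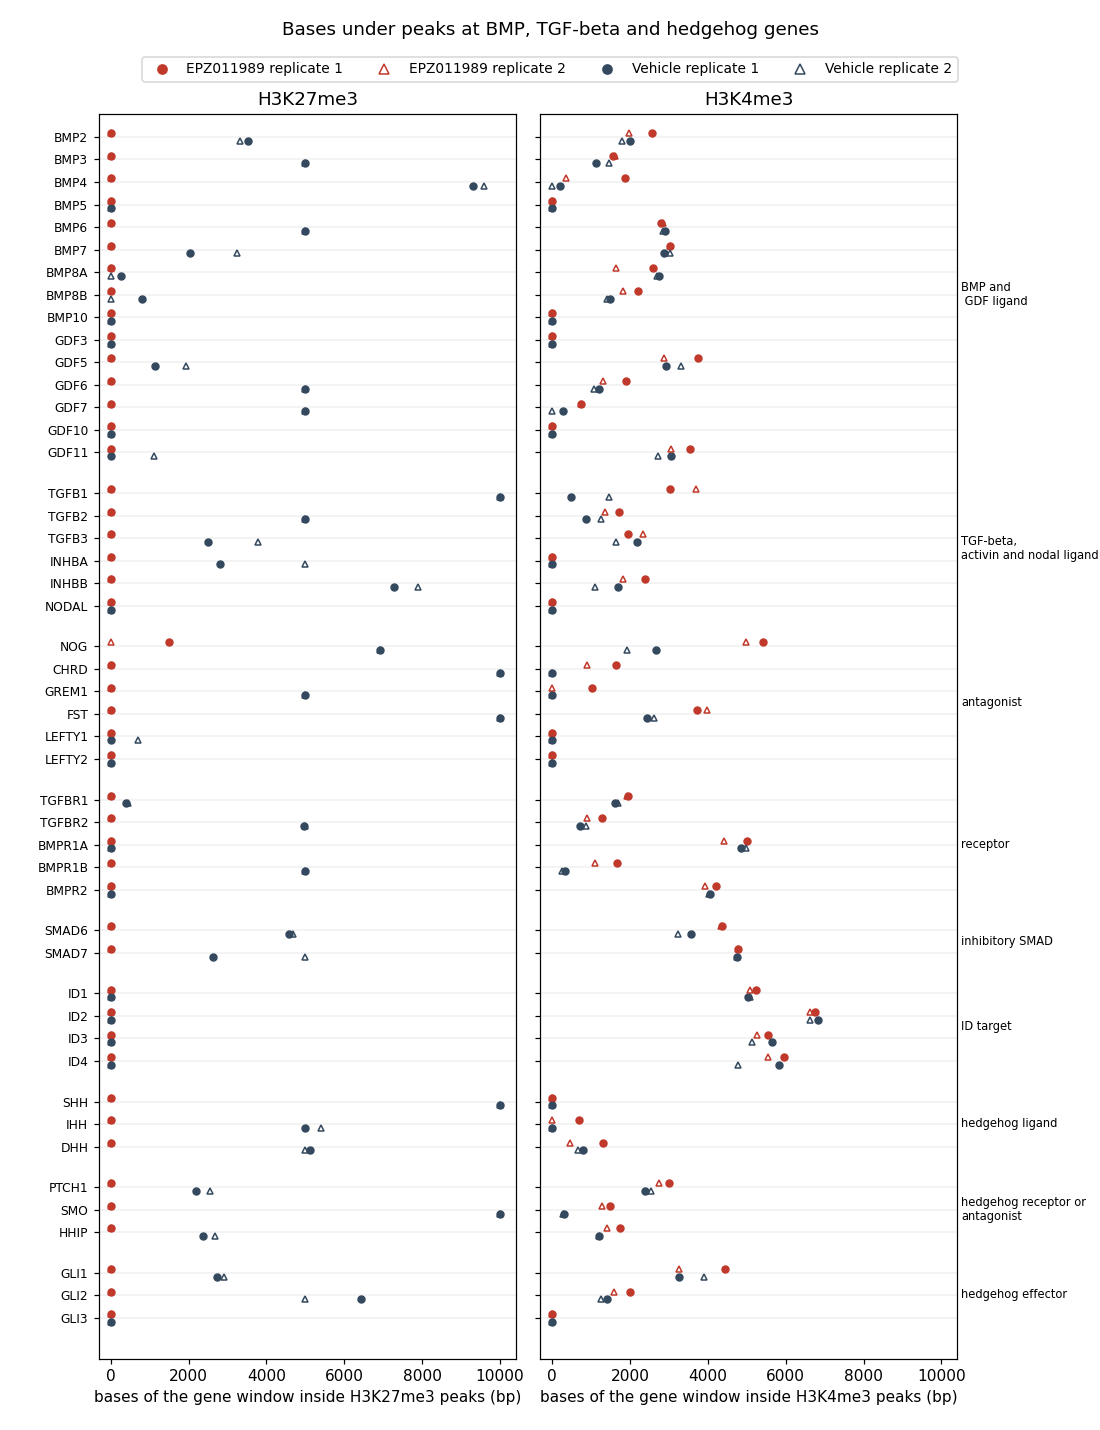
Bases inside peaks (bp, x axes) for each of the 47 genes, grouped by role (y axis), for H3K27me3 on the left and H3K4me3 on the right. Red symbols are the 2 EPZ011989 libraries and dark symbols the 2 vehicle libraries; the EPZ011989 H3K27me3 values are all 0 except 1489 bp at NOG, and the H3K4me3 values of ID1 to ID4 lie between 4779 and 6835 bp in both treatments.

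The second comparison asks whether H3K4me3 changed at the same genes. By limma with Benjamini-Hochberg adjustment, 0 of the 37 genes tested were higher and 0 lower, as over all 13796 genes tested (0% in either direction). At an unadjusted p under 0.05, 9 of the 37 were higher and 0 lower, against 8.41% and 1.48% of all genes. The median difference was 388 bp for the 37 genes, with 33 positive and 4 negative. Over all 13796 genes tested it was 52 bp, with 7960 positive and 5759 negative. Set against the vehicle mean, the median of the 37 genes was 649 bp in EPZ011989 replicate 1 and 220.5 bp in replicate 2. Over all genes it was 187 bp and -77.5 bp. Both EPZ011989 values lay above both vehicle values at 22 of the 37, against 24.4% of all genes, and below at 2, BMP6 and BMP8A, against 12.7%. At the 6 pathway genes with H3K4me3 alone, both values lay above at 0 and below at 0. Over all genes of that state these shares were 12.7% and 18.9%. The median difference at the 6 genes was 9.5 bp. EPZ011989 H3K4me3 libraries had the higher background, 1.48 and 1.24 fragments per base, against 0.572 and 0.857 in vehicle. Its part in all these differences was not tested. With windows at 0 in every library added to the fit, 6 of the genes were called higher (NOG, TGFB1, FST, CHRD, SMO and BMPR1B) and 0 lower, against 2.46% and 0.16% of all genes. After quantile normalization 1 was called higher, NOG, and 0 lower, against 0.645% and 0.0507% of all genes tested.

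Most of the genes with separated values carried both marks in vehicle. Both EPZ011989 values lay above both vehicle values at 17 of the 23 such pathway genes, against 40.5% of all genes with both marks, and below at 1, against 6.32%. The median difference was 388 bp at the 23 genes and 203.5 bp at all 4839 genes with both marks. It was 9.5 bp at the 6 pathway genes with H3K4me3 alone and -38 bp at all 6441 such genes. Expanded H3K4me3, with both EPZ011989 values at least 1000 bp above both vehicle values, was found at 3 of the 47, TGFB1, NOG and FST, against 0.741% of all genes, and contracted H3K4me3 at 0, against 0.025%. H3K4me3 was gained, with peaks in both EPZ011989 libraries but no vehicle library, at 1 gene, CHRD, against 0.921% of all genes, and lost at 0, against 0.14%. These rules compare every library of both groups, so leaving out a library can add genes but cannot remove any. Without EPZ011989 replicate 2, 8 genes were expanded and 3 gained (CHRD, GREM1 and IHH). Without vehicle replicate 1, 5 were expanded and 3 gained (BMP4, GDF7 and CHRD). Without EPZ011989 replicate 1, 7 genes lay below and BMP8A was contracted, and without vehicle replicate 2, 4 lay below.

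**Figure D2:**
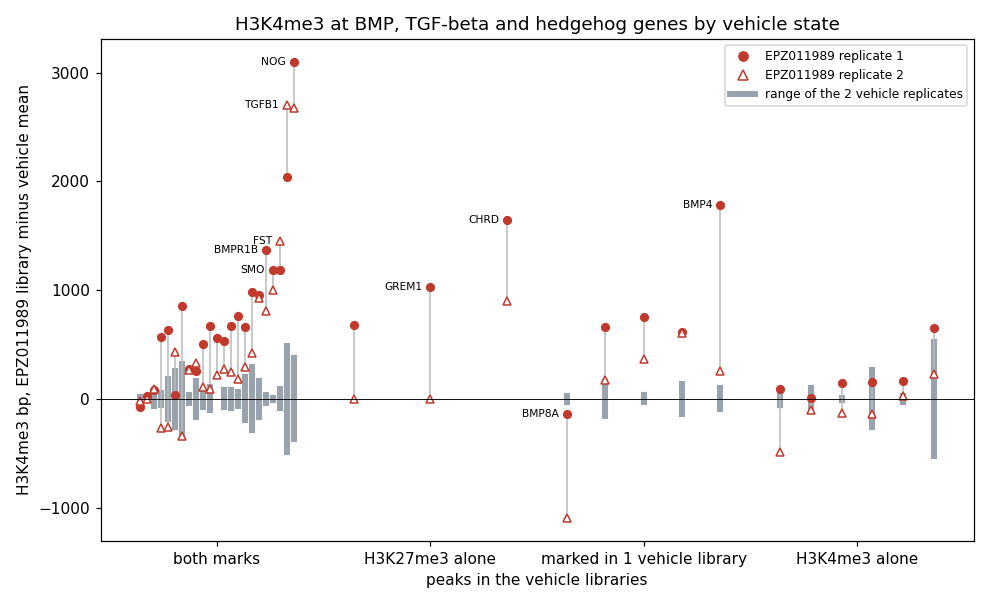
H3K4me3 bases in each EPZ011989 library minus the vehicle mean (bp, y axis) for the 37 genes with a peak, grouped by their vehicle marks (x axis). Filled circles are EPZ011989 replicate 1, open triangles replicate 2 and grey bars the range of the vehicle libraries. NOG and TGFB1 stand highest among genes with both marks. At the 6 genes with H3K4me3 alone the mean differences run from -199.5 to 440 bp, with a median of 9.5 bp.

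By role, antagonists had the highest median H3K4me3 difference among the 47 genes, with a value of 1296.75 bp over the 4 tested. Antagonists and extracellular modulators among the further pathway genes described below varied more, from -1128.5 bp at DAND5 to 1378 bp at FSTL3. NOG had 5408 and 4986 bp of H3K4me3 with EPZ011989, against 2678 and 1935 bp in vehicle. The groups did not overlap, and the difference was 2890.5 bp (SE 327, limma adjusted p = 0.117). In vehicle replicate 1 the NOG signal was a peak around the lower-numbered gene end and a separate one of 345 bp further on, whereas EPZ011989 replicate 1 had a single peak of 5408 bp with a fold of 64.2. EPZ011989 replicate 2 had peaks on either side of a gap from 1.64 to 2.05 kb above that end. The remaining H3K27me3 peak of EPZ011989 replicate 1 lay within the H3K4me3 peak of the same-numbered EPZ011989 library.

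Follistatin and chordin followed a similar course. FST (chromosome 5, 53480629 to 53487134, plus strand) had 3718 and 3985 bp of H3K4me3 with EPZ011989, against 2442 and 2616 bp in vehicle, with a difference of 1322.5 bp (SE 210, adjusted p = 0.178). CHRD (chromosome 3, 184380054 to 184390739, plus strand) had 1644 and 898 bp with EPZ011989, against 0 and 0 bp in vehicle, with a difference of 1271 bp (SE 278, adjusted p = 0.255). No CHRD value overlapped between groups, and all of the new signal lay within 2500 bp of the annotated start and overlapped the promoter printed above. GREM1, a BMP antagonist of limb and gut, had 1032 and 0 bp with EPZ011989, against 0 and 0 bp in vehicle, so its signal rests on one library. LEFTY1 and LEFTY2 had no H3K4me3 in any library, though windows of 5000 bp at LEFTY1 held 1004 and 984 bp with EPZ011989, against 806 and 763 bp in vehicle.

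Ligands varied from no peak to large differences. TGFB1 (chromosome 19, 41330323 to 41353922, minus strand) had 3015 and 3686 bp of H3K4me3 with EPZ011989, against 490 and 1467 bp in vehicle. The groups did not overlap, and the difference was 2372 bp (SE 407, adjusted p = 0.183). At its annotated start the values were 3015 and 3102 bp with EPZ011989, against 490 and 1467 bp in vehicle. BMP4 had 1878 and 349 bp with EPZ011989, against 194 and 0 bp in vehicle (adjusted p = 0.619). Its annotated start lies inside the gene's outer limits, and the window around that start had 3203 and 2035 bp with EPZ011989, against 1860 and 1742 bp in vehicle. In both windows the EPZ011989 values were the higher ones and differed widely from each other.

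Ligands with smaller differences were INHBB, GDF7 and BMP8B. INHBB had 2385 and 1815 bp of H3K4me3 with EPZ011989, against 1687 and 1108 bp in vehicle (adjusted p = 0.547). GDF7, a ligand that in mice patterns dorsal spinal cord neurons, had 750 and 744 bp with EPZ011989, against 275 and 0 bp in vehicle (adjusted p = 0.375). These 3 genes kept their groups apart, with BMP8B at 2201 and 1811 bp with EPZ011989, against 1477 and 1413 bp in vehicle (adjusted p = 0.474). BMP8A, its near-copy, went the other way, at 2591 and 1633 bp with EPZ011989, against 2757 and 2702 bp in vehicle (adjusted p = 0.675). The BMP8A and BMP8B promoters are identical at 243 of 300 bases (81%), so reads could be shared between them. BMP6, an iron-responsive ligand of the liver, had 2792 and 2850 bp with EPZ011989, against 2887 and 2852 bp in vehicle, all within a narrow range, and its start lay wholly under H3K27me3 in vehicle. BMP3 had 1551 and 1620 bp with EPZ011989, against 1123 and 1459 bp in vehicle. The other ligands tested, BMP2, BMP7, GDF5, GDF6, GDF11, TGFB2 and TGFB3, had differences of 85.5 to 476 bp, and INHBA, like the unmarked ligands, had no H3K4me3 in any library.

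Receptors were of 2 kinds. BMPR1B (chromosome 4, 94757955 to 95158450, plus strand), a type I BMP receptor, had 1657 and 1095 bp of H3K4me3 with EPZ011989, against 320 and 251 bp in vehicle. The difference was 1090.5 bp (SE 235, adjusted p = 0.251), and its start lay wholly under vehicle H3K27me3. BMPR1A, the other type I BMP receptor, had 5001 and 4426 bp with EPZ011989, against 4854 and 4972 bp in vehicle, and BMPR2, their type II partner, had 4198 and 3920 bp, against 4058 and 4041 bp. Neither carried H3K27me3, and the nearest vehicle H3K27me3 peak was 121 kb from BMPR1A and 129 kb from BMPR2. TGFBR1, the type I TGF-beta receptor, had 1938 and 1925 bp with EPZ011989, against 1625 and 1696 bp in vehicle. TGFBR2, its type II partner, had 1290 and 902 bp, against 712 and 865 bp. Both kept their groups apart, by less at TGFBR2, and neither passed the test (adjusted p = 0.718 and 0.747).

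Inside the cell, SMAD6 had 4363 and 4331 bp of H3K4me3 with EPZ011989, against 3574 and 3237 bp in vehicle, with a difference of 941.5 bp (SE 224, adjusted p = 0.293). In windows of 1000 bp around the gene ends SMAD6 differed by 0 bp, so the difference lay farther out. SMAD7 had 4782 and 4762 bp with EPZ011989, against 4758 and 4760 bp in vehicle. Within these windows, the 4 ID genes had the longest mean H3K4me3 of the 47 genes in vehicle, 5061.5 to 6733.5 bp, and their groups overlapped. ID1 had 5225 and 5085 bp with EPZ011989, against 5037 and 5086 bp in vehicle. ID2 had 6742 and 6632 bp, against 6835 and 6632 bp, and ID3 had 5547 and 5250 bp, against 5650 and 5128 bp. ID4 had 5955 and 5537 bp with EPZ011989, against 5833 and 4779 bp in vehicle. No ID gene had H3K27me3 in any library, and the nearest vehicle H3K27me3 was 7.8 kb away at ID2, 33.5 kb at ID1, 57.8 kb at ID3 and 144 kb at ID4.

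In the hedgehog pathway the ligands and the signal transducer differed. SMO (chromosome 7, 129188633 to 129213545, plus strand) had 1480 and 1291 bp of H3K4me3 with EPZ011989, against 301 and 280 bp in vehicle. The difference was 1095 bp (SE 169, adjusted p = 0.170), far wider than the gap between replicates of either group. SHH had 0 bp of H3K4me3 in all 4 libraries within its window, and its H3K27me3 fell to 0 bp with EPZ011989. In windows of 5000 bp around the gene ends SHH carried both marks in vehicle, and its H3K4me3 came to 1637 and 1412 bp with EPZ011989, against 536 and 635 bp in vehicle, so that H3K27me3 stood alone there within the shorter window. IHH had 679 and 0 bp with EPZ011989, against 0 and 0 bp in vehicle, and DHH had 1294 and 464 bp, against 785 and 672 bp, with overlapping groups. All vehicle H3K4me3 of DHH lay at its other gene end. Around its annotated start H3K4me3 was 272 and 0 bp with EPZ011989, against 0 and 0 bp in vehicle. Vehicle H3K27me3 there was 3780 and 3983 bp. HHIP, a hedgehog-binding antagonist, had 1755 and 1420 bp with EPZ011989, against 1200 and 1199 bp in vehicle. GLI2 had 2011 and 1584 bp, against 1421 and 1253 bp, GLI1 had 4442 and 3247 bp, against 3266 and 3913 bp. GLI3 had none near its outer ends in any library, and its start was not read.

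PTCH1, singled out after its values were seen, shows how the window bears on the state of a gene. In its window it carried both marks, with H3K27me3 at 0 and 0 bp with EPZ011989 and 2200 and 2547 bp in vehicle, and H3K4me3 at 3009 and 2745 bp with EPZ011989 and 2395 and 2551 bp in vehicle. Within 2500 bp of its annotated start (chromosome 9, 95509266, minus strand), inside the gene's outer limits, H3K4me3 filled 5001 bp in all 4 libraries and H3K27me3 was at 0 bp in all 4. The H3K27me3 peaks of vehicle lay from -9.92 to -7.72 kb in replicate 1 and from -9.75 to -7.21 kb in replicate 2, where negative values are upstream of that start. TGFBR1 and GDF5 likewise had H3K4me3 and no H3K27me3 at the annotated start. DHH, with both marks in its window, had H3K27me3 and no H3K4me3 at its annotated start in vehicle. Over the 38 genes with an annotated start, H3K27me3 lay in the 5001 bp start window in both vehicle libraries at 21, against 32.3% of all 15812 such genes, and filled it at 14, against 9.23%. Both marks stood there at 14 of 38, against 21.5%, and both EPZ011989 H3K4me3 values lay above both vehicle values at 18 of 38, against 16.6%.

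**Figure D3:**
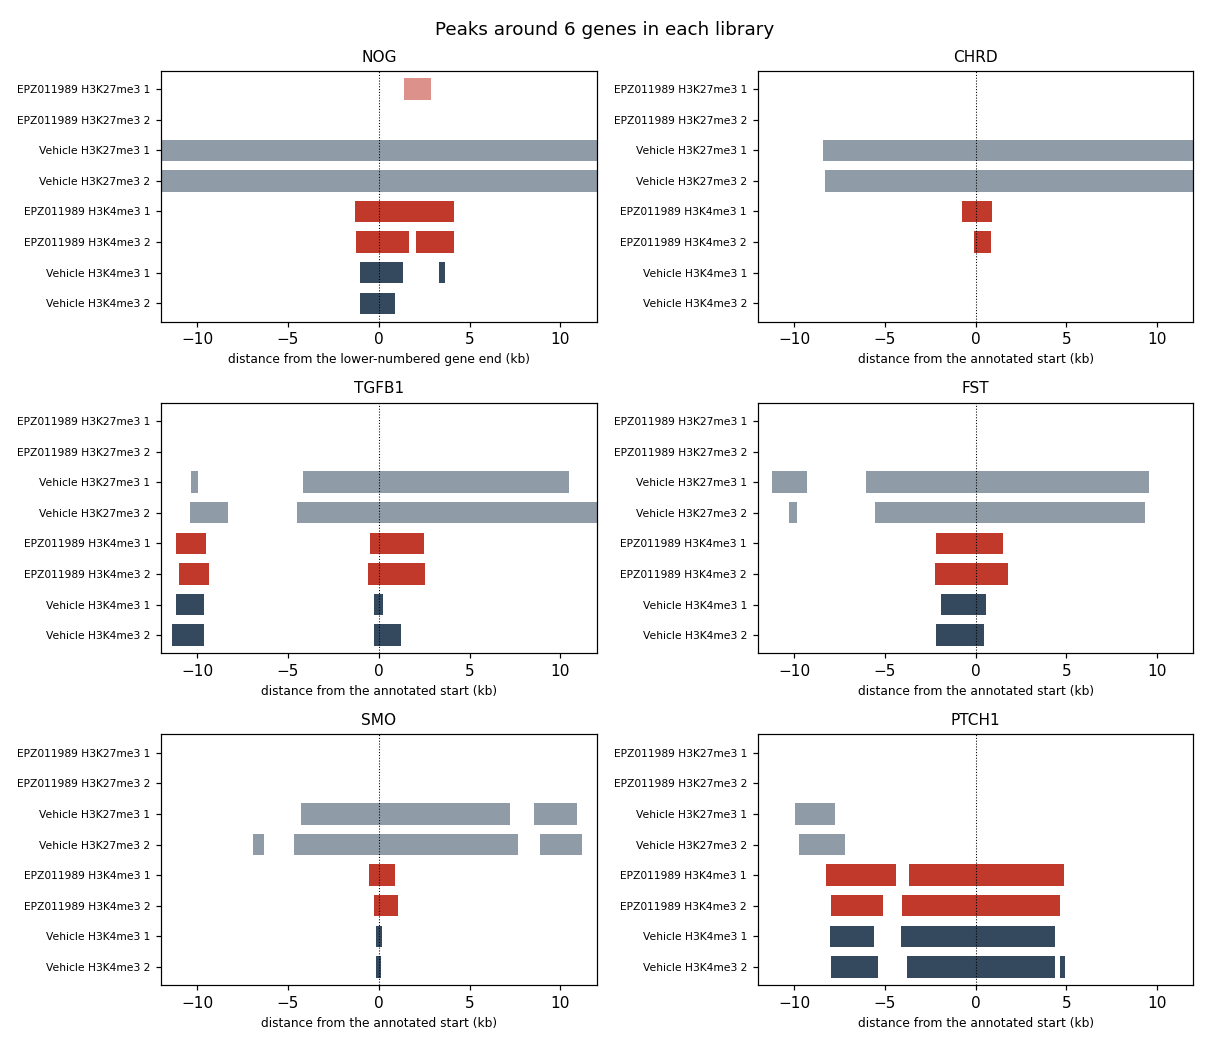
Peaks (horizontal bars) in each H3K27me3 and H3K4me3 library within 12 kb of the annotated start, or of the lower-numbered gene end for NOG, with distance in kb on the x axis in the direction of the gene where its strand is known. Red bars are EPZ011989 libraries and dark bars vehicle libraries; at NOG, CHRD, TGFB1, FST and SMO the H3K4me3 peaks around the start are wider with EPZ011989 and lie inside the vehicle H3K27me3, whereas at PTCH1 H3K27me3 lies off the start.

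The position of the added H3K4me3 was read base by base. Bases with H3K4me3 in both EPZ011989 libraries but in no vehicle library came to 10377 bp over the windows of the pathway genes, and 9643 bp of them (92.9%) lay inside H3K27me3 of both vehicle libraries. Of the 10377 bp, 6583 bp were at genes whose window it filled, and 3060 of the other 3794 bp lay inside it. Over all genes the share was 58.1%, and over 63 further genes of the same pathways, described below, it was 52.7%. Among genes with both marks in vehicle it was 94.8% for the pathway genes, 60.9% for the further genes and 76.0% for all genes. These windows held much vehicle H3K27me3 to begin with: at the pathway genes with both marks, 68.5% and 77.8% of vehicle H3K4me3 bases lay inside the H3K27me3 of the same-numbered vehicle library, against 44.0% and 50.9% at all such genes. No test was made of these shares. Bases with H3K4me3 in both vehicle libraries but in no EPZ011989 library came to 123 bp at the pathway genes. Of these, 121 bp were at BMP8A, and the 63 further genes had 2707 such bp.

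A few genes held most of the added bases. NOG had 2277 bp, TGFB1 1539 bp, FST 1014 bp, CHRD 898 bp, SMO 855 bp, BMPR1B 808 bp and SMAD6 757 bp. At the first 5 of these, vehicle H3K27me3 filled the window, so an added base could lie nowhere else. At BMPR1B and SMAD6 it took up 5001 and 4569 bp of a window of 10002 bp, and every added base lay inside it. However, H3K4me3 of both genes lay only within 2500 bp of the annotated start. Vehicle H3K27me3 filled those 5001 bp at BMPR1B and took up 4569 and 4677 bp of them at SMAD6. Added bases there had nowhere else to lie at BMPR1B and little room elsewhere at SMAD6. Added bases outside vehicle H3K27me3 were found at TGFBR1 (229 bp), PTCH1 (186 bp), BMP8B (133 bp) and ID4 (117 bp), with smaller stretches elsewhere. SHH, INHBA, GREM1 and IHH, with H3K27me3 alone in vehicle, had 0 added bases.

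**Figure D4:**
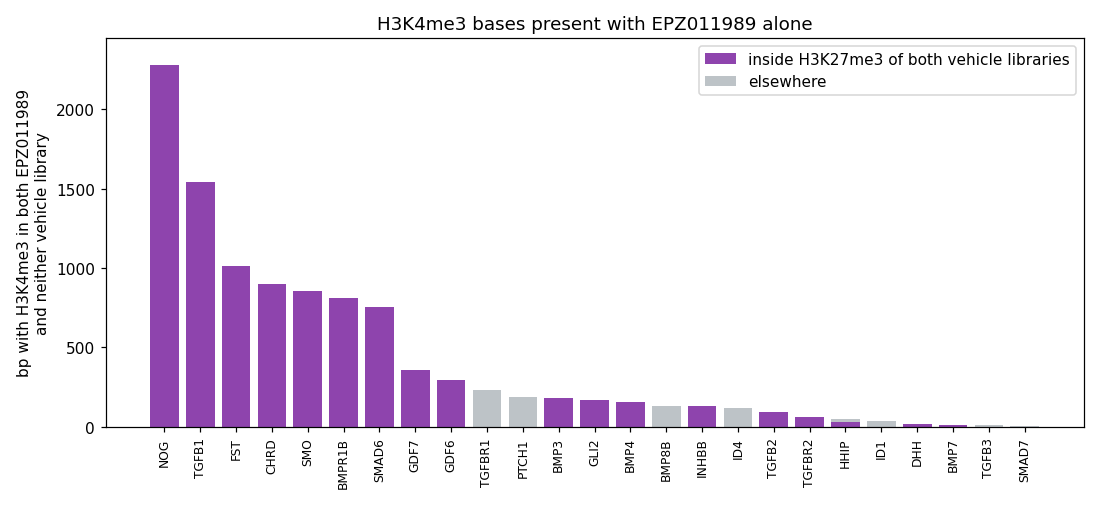
Bases (bp, y axis) with H3K4me3 in both EPZ011989 libraries but no vehicle library at each gene that has any (x axis). Purple bars are bases inside H3K27me3 of both vehicle libraries and grey bars other bases; NOG stands highest at 2277 bp, all inside vehicle H3K27me3, which filled its window.

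Promoters of these genes were rich in CG dinucleotides. The 38 genes matched to a RefSeq promoter had a median of 28.5 CG in 300 bases, from 1 to 58, against a median of 22 over all 15812 promoters. Promoters with H3K27me3 alone in vehicle had a median of 34 CG at the 6 pathway genes and 11 at all genes in that state. States here rest on peaks over the 300 bases, not on the windows used above, so BMP4 and DHH joined this group and INHBA left it. BMP4 had 1860 and 1742 bp of vehicle H3K4me3 within 2500 bp of its annotated start, outside these 300 bases. In the other states the pathway genes and all genes had medians of 29 and 28 with both marks, 27.5 and 27 with H3K4me3 alone, 36.5 and 24 with a mark in a single vehicle library, and 3 and 5 with neither mark. SHH and DHH, at 7 and 12 CG, were the poorest of the 6, while BMP4, CHRD, IHH and GREM1 had 32 to 42. The other 9 of the 47 genes are BMP2, BMP3, BMP7, GDF6, NOG, LEFTY1, LEFTY2, GLI1 and GLI3.

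**Figure D5:**
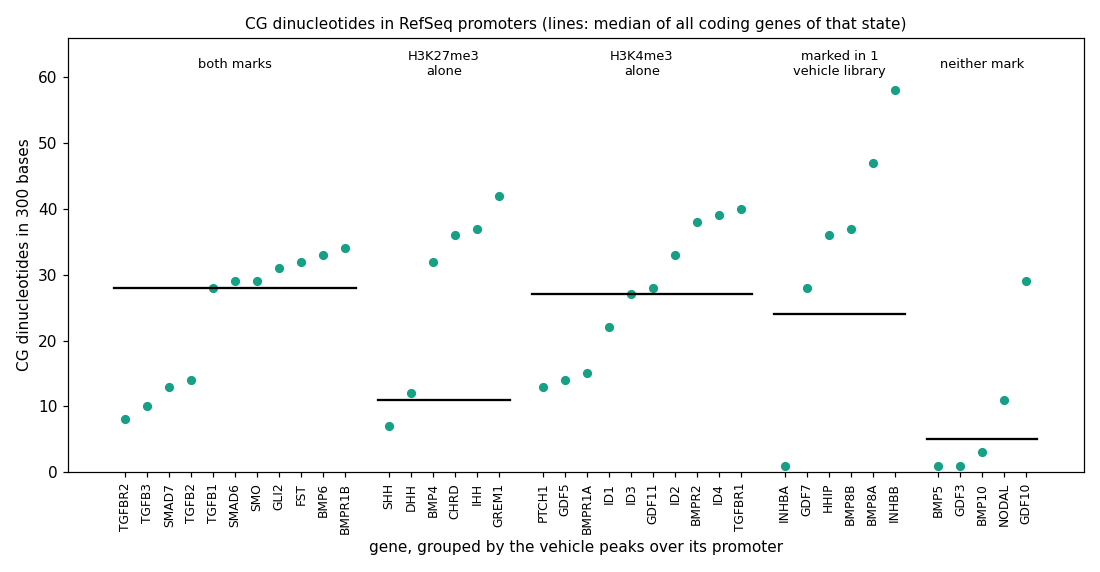
CG dinucleotides in the 300 bases of each RefSeq promoter (y axis) for 38 genes, grouped by the vehicle peaks that overlap the promoter. Points are genes and black lines the median over all coding genes in that state; the H3K27me3 group stands above its line except for SHH, and BMP5, GDF3 and BMP10 lie at 1 to 3.

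Elements bound by the pathways' own factors were searched for in the same 300 bases. GGCGCC, an element of SMAD1 and SMAD5, was present on either strand in 8 of 38 promoters (21.1%), against 25.2% of all promoters. CAGAC, an element of SMAD3 and SMAD4, was present in 17 (44.7%), against 44.1%. The GLI core CCACCCA was present in 3, those of TGFB1, PTCH1 and GLI2 (7.89%), against 9.33%. Both strands were searched and no motif contains another. A match describes these 300 bases alone and says nothing of binding.

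A further 63 genes of the same pathways, which include the receptor-regulated SMADs, co-receptors and SUFU, were read in the same way. Both marks were present in vehicle at 24 of them, against 24.2% of all genes. H3K27me3 was in both vehicle libraries at 31 of the 63, against 36.9%, and it fell at 27 of 41 tested by limma, against 60.2%. H3K4me3 was called at 0 of 48 tested, against 0% of all genes. Both EPZ011989 values lay above both vehicle values at 14 of the 48, against 24.4%, and below at 8, against 12.7%. The median H3K4me3 difference was 38.25 bp, with 25 positive and 23 negative, and 52 bp over all genes tested. FSTL1, a follistatin-related secreted protein, gained H3K4me3, with 739 and 789 bp with EPZ011989, against 0 and 0 bp in vehicle (limma adjusted p = 0.222). ACVR1, a type I receptor of BMPs, was expanded, with 3288 and 3347 bp with EPZ011989, against 2052 and 2187 bp in vehicle (adjusted p = 0.180). FSTL1 and ACVR1 each had H3K27me3 in the vehicle libraries and none with EPZ011989. Gained and expanded H3K4me3 were each found at 1 of the 63, against 0.921% and 0.741% of all genes. Lost and contracted H3K4me3 were found at 0, against 0.14% and 0.025%. The largest decrease was at DAND5, listed with the antagonists, with 1408 and 1019 bp with EPZ011989, against 2461 and 2223 bp in vehicle (limma adjusted p = 0.207).

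Several windows are shared with neighbours, so their values may belong to either gene. These are BMP6 with TXNDC5, GDF5 with CEP250, TGFB1 with B9D2, INHBB with LOC105373989, CHRD with THPO, TGFBR2 with LOC105377015, DHH with LMBR1L, and GLI1 with INHBE and ARHGAP9.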

How the data were processed

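CUT&RUN peak lists of 12 MKL-1 libraries on hg38 were used. The tools named are MACS2 2.1.1.20160309, Bowtie2 2.2.9, SAMtools 0.1.19 and FastQC, per the submitters' processing notes. Thresholds, the control, duplicate handling and use of the spike-in are not given in the sources used here. Per peak, the authors deposited a fold (a ratio of pileup to local background), a −log10 p, a −log10 q and a score derived from the −log10 q. The H3K27me3 lists are broad peaks, and the lists of H3K4me3 and IgG are narrow ones.

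Bases under peaks were summed per gene window (GRCh38.p14 gene table, 2500 bp on either side of each gene end) with no scaling between libraries, since counts of reads and spike-in values were not analysed here. Depth was approximated by solving the most frequent fold and its −log10 p for fragments under a Poisson model, with the background assumed to be that of the same library. Limma 3.58.1 (R 4.3.3, trend and robust, treatment only, two-sided, tested on simulated data) was fitted over all genes that had a peak in 1 or more of the 4 libraries of a mark, and p was adjusted after Benjamini and Hochberg (threshold 0.05). With 2 replicates a group and nothing in the labels to say that the same number marks a shared batch, no block was used. Deviations of same-numbered libraries correlated at 0.0162 for H3K27me3 and -0.0296 for H3K4me3. The H3K27me3 value cannot tell of a shared batch. There, 41 of 19974 genes had a peak in an EPZ011989 library, so nearly all EPZ011989 deviations were 0. RefSeq promoters of GRCh38.p14 matched 38 of the 47 genes by symbol. Python 3.11.15, numpy 2.4.6, pandas 2.3.3, scipy 1.17.1 and matplotlib 3.10.9 were used.

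The 47 genes, the 63 further genes and the markers were chosen with earlier results of these data known. Values in every library were given by rule: up to 12 genes with the largest H3K4me3 difference and separated groups, genes with H3K27me3 left or with H3K4me3 gained or lost, the 8 longest H3K27me3 regions, near-identical pairs and up to 6 genes with H3K4me3 and no H3K27me3. The other genes with values were singled out after their values were seen. Alternatives were other windows, the annotated start, a stricter −log10 q of 5, removal of peaks on IgG peaks, other filters, quantile normalization, limma without trend and robust, a replicate block and leaving out each library.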

Additional observations from a re-analysis of the deposited data

How the results depend on the processing

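For H3K27me3, the count of pathway genes called lower (27) stayed within 1.5 times under every alternative run with all libraries, at 19 to 29. The 19 came from the annotated start, which 38 of the 47 genes have. Called higher (0) became 6 with quantile normalization. It turned positive the differences at BMP8A (1032 bp), BMP8B (872 bp), GDF5 (371 bp), GDF11 (879.5 bp), LEFTY1 (975 bp) and TGFBR1 (914 bp). Without a vehicle library, 1 vehicle value faced EPZ011989 values of 0 at every pathway gene but NOG. No spread remained, so any peak in the kept library gave a call, as at BMP8A (-259 bp without vehicle replicate 2). The upper end of the range given next for leaving out libraries therefore cannot show robustness. Over all genes, 5784 called lower became 3210 to 8885 on leaving out single libraries, 3301 with the stricter q, 3598 with quantile normalization and 3707 at the annotated start. Higher calls over all genes were 0 to 7 on leaving out single libraries and 3301 with quantile normalization. With a replicate block, 24 of the pathway genes and 4555 of all genes were called lower for H3K27me3, BMP7, TGFB3 and NOG having lost the call, and 0 genes for H3K4me3. The fit of H3K27me3 with windows at 0 in every library could not be fitted.

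For H3K4me3, pathway genes called higher were 6 with such windows added and 1 with quantile normalization. Over all genes, 491, 89, 2 and 35 were called higher with such windows added, quantile normalization, windows of 1000 bp and windows of 5000 bp, and 32, 7 and 4 lower under the first 3 of these. In windows of 1000 bp SMAD6 differed by 0 bp, 1 pathway gene was expanded, 14 lay above and 1 below. A peak overlap of 500 bp gave 4 gained and 5 expanded, and the stricter q gave 2 gained, 1 below and 15 with both marks. The annotated start alone gave 14 with both marks, against 23. On leaving out single libraries, gained ranged from 1 to 3, expanded from 3 to 8, contracted from 0 to 1, above from 23 to 32, below from 2 to 7, and H3K27me3 left with EPZ011989 from 0 to 1. Joining regions across 3 kb gaps raised the median region from 11.6 to 16.2 kb. The causes were not tested. With 2 libraries a group and no read depth, the precision of a single gene is limited.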
